A study of Mus musculus with 32 samples.

Results

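The genes described here encode the machinery of oxidative phosphorylation: the subunits of respiratory complexes I to IV, cytochrome c and ATP synthase. Members were chosen by symbol, as every gene whose symbol begins with Nduf, Uqcr, Atp5 or Cox4 to Cox8, together with Sdha to Sdhd, Cycs and the 13 protein-coding genes of the mitochondrial genome, without pseudogenes. That gave 108 of 57186 listed genes, 95 of them nuclear and 13 mitochondrial. The Nduf prefix also brings in 8 complex I assembly factors (Ndufaf genes), which build the complex but are not part of it, and they are kept apart below. Ndufa4 and Ndufa4l2 are counted with complex IV, where the Ndufa4 protein is found. Of the members 99 had enough counts to be tested, 91 nuclear and 8 mitochondrial, among 14428 tested genes. Not tested for want of counts were 5 mitochondrial genes, Cox6b2, Cox7b2, Cox8c and a second entry named Atp5o.

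The cells were 3T3-L1, a mouse preadipocyte line that had been turned into fat cells with insulin, dexamethasone and IBMX. They received DMSO vehicle, SCO, CAP7 or rosiglitazone (ROSI), each without or with tumour necrosis factor alpha (TNF), for 24 h, which gave 8 groups of 4 libraries. Rosiglitazone activates PPARγ, a nuclear receptor and master regulator of fat cell differentiation. The labels leave SCO and CAP7 undefined, though the series title speaks of an extract of Artemisia scoparia, and give no doses. The 4 libraries of a group are called biological replicates, with no culture, day or batch named, so the p values below measure the spread between these libraries.

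In oxidative phosphorylation, complexes I and II pass electrons from NADH and succinate to ubiquinone, complex III passes them on to cytochrome c, and complex IV hands them to oxygen. Complexes I, III and IV pump protons across the inner mitochondrial membrane, and ATP synthase makes ATP from their return. Every complex except II joins nuclear-encoded subunits to a few encoded by the mitochondrial genome, so mRNA for a single enzyme is made by separate transcription systems. In fat cells the chain rises with differentiation, and PPARγ, its PGC-1 coactivators and the factors NRF1, GABP, ERRα and YY1 are known to act on nuclear genes of the chain.

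Short stretches of promoter sequence are shown first, chosen to hold a perfect match to the core sequence of NRF1, GABP, ERRα or YY1. Whether these stretches had a part in the changes below was not tested. They are RefSeq sequence of the build GRCm38.p6, read 5′ to 3′ on the gene's own strand (minus in all 4), and capitals mark the matches. Atp5g3, encoding the c subunit of the ATP synthase rotor, has the ERRα core TCAAGGTCA on its other strand within the printed stretch, chr2:73911327-73911436. Cycs, encoding cytochrome c, has the NRF1 core CGCATGCG within the printed stretch, chr6:50566570-50566679. Uqcr11, encoding a small complex III subunit, has the ETS core of GABP, CCGGAAGT, within the printed stretch, chr10:80406822-80406931. It also has an NRF1 core that begins 5 bases before the start and runs past the printed end, so that match is not in capitals. Atp5j, encoding coupling factor 6 of ATP synthase, has the NRF1 core and the YY1 core AAGATGGCG within the printed stretch, chr16:84835044-84835153.
Atp5g3: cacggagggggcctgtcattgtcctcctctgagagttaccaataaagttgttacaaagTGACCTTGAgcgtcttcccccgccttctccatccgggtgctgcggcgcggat
Cycs: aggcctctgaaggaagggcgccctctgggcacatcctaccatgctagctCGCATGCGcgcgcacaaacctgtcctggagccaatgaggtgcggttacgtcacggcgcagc
Uqcr11: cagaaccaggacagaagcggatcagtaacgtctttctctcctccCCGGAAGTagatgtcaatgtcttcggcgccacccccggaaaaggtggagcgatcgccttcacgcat
Atp5j: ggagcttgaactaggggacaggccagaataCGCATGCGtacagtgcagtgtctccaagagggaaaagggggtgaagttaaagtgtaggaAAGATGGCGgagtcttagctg

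Windows from 250 bases before to 50 bases after the start were searched on both strands for these 4 exact words, and no match overlapped another. The NRF1 core reads the same on both strands. Of 94 nuclear member symbols 75 had a window. The NRF1 core was in 12 of them (16.0%), against 2.07% of 27025 genes with a window. The YY1 core was in 8 (10.7%, against 1.64%), the ETS core in 5 (6.67%, against 4.31%) and the ERRα core in 2, Atp5g3 and Sdhd (2.67%, against 0.466%). At least 1 of the 4 words was in 25 of the 75 (33.3%, against 8.03%). The comparison set holds every gene with a window, tested here or not, and was not matched to the members for expression. A match describes the letters of a window and says nothing on whether a factor was bound in these cells.

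Counts were fitted with edgeR over all genes and libraries in 1 model, and a gene was called higher or lower where its Benjamini-Hochberg adjusted p was under 0.05. Fold changes are on the log2 scale with their standard error, from 4 against 4 libraries, and levels are counts scaled to a common library total with TMM factors and given as CPM. The libraries were counted at transcript 3′ ends, so CPM does not grow with gene length. Levels are compared within a gene, and counts of different genes are set against each other only in ratios taken within a library and compared between groups. Library totals ran from 11312837 to 37675008 counts. With library totals alone in place of TMM factors, the median of all tested genes shifted from near 0 to between -0.06 and -0.17 in the 6 comparisons of compound and control, and the share of higher calls among all genes fell from between 49.2% and 62% to between 27.8% and 44.2%. In the 6 comparisons of one compound with another that share went the other way, from between 39.9% and 50.2% to between 57% and 72%. Under that scaling the median of the members was 0.12, 0.22 and 0.25 for SCO, CAP7 and ROSI without TNF and 0.26, 0.46 and 0.51 with TNF, against 0.19, 0.33, 0.39, 0.33, 0.56 and 0.66 as reported below. Where the call of a gene given in full depends on it, this is said beside the value.

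The summed level of fat cell markers fell with TNF and was higher with each compound, although single markers differed. The summed level of 6 adipocyte markers (Adipoq, Fabp4, Plin1, Lpl, Cidec, Pparg) was 39605 to 42018 CPM with vehicle, 60625 to 68792 with SCO, 50877 to 63624 with CAP7 and 67472 to 81043 with ROSI. With TNF it was 12040.3 to 14113, 31891 to 39249, 34676 to 43273 and 50669 to 63426 CPM in the same order. All 6 fell with TNF, and none of the 6 was at 0 in any library. Without TNF, SCO raised 3 of them and lowered 1, and CAP7 and ROSI each raised 4 and lowered 1, with medians of 0.15, 0.22 and 0.23. The marker that fell was Pparg, which encodes PPARγ, by 0.50, 0.49 and 1.13 on the log2 scale with SCO, CAP7 and ROSI. Adipoq, which encodes the hormone adiponectin, gave -0.12 and -0.16 with SCO and CAP7, not called, and rose by 0.22 with ROSI. Most of the difference in the sums was in Fabp4, a fatty acid binding protein, at a mean of 15841 CPM with vehicle and 45168 with ROSI. Under TNF, SCO raised 5, CAP7 6 and ROSI 5 of the 6 and none fell. The summed preadipocyte markers (Pdgfra, Dlk1, Thy1, Cd34, Ly6a) ran from 426 to 997 CPM over all libraries and were highest with vehicle alone (841 to 997). Dlk1 reached 876 CPM and none of the others more than 68.7 CPM, so the sum mainly follows Dlk1. Of the 4 tested markers TNF lowered 2 and raised 1, by 1.10 on the log2 scale. The 5 leukocyte markers summed to 1.78 to 4.03 CPM with vehicle and 10.6 to 14.1 with TNF, mostly Cd68; Adgre1 was at 0 in 32 libraries and Ptprc in 30. The endothelial markers Cdh5 and Kdr were at 0 in 30 and 29 libraries. In bulk RNA, fewer fat cells and less RNA per fat cell cannot be told apart, and the part of cell state in the results below was not tested.

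TNF lowered the nuclear members nearly as a block. Their summed level was 40193, 40748, 39358 and 38924 CPM in the 4 vehicle libraries and 20573, 21582, 20441 and 22363 CPM with TNF. The groups were far apart, and the mean fell by 46.6%. Of 99 tested members 88 fell and 2 rose, where among all tested genes 27.5% fell and 26.7% rose. The median change was -0.87 for the nuclear members, -0.20 for the mitochondrial ones and -0.01 for all genes. The 2 that rose were Cox6a2 and mt-Nd5.

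Each compound alone raised many nuclear members. The summed nuclear level was 45942, 47703, 44139 and 48349 CPM with SCO, 47352, 54429, 51828 and 51576 with CAP7 and 56623, 55969, 50732 and 55083 with ROSI. All 12 libraries lay above all 4 vehicle libraries, by 16.9%, 28.9% and 37.2% in the mean. With SCO 43 members rose and 0 fell (background 10.3% higher, 8.99% lower). With CAP7 72 rose and 1 fell (background 15.2% and 15%), and with ROSI 75 rose and 1 fell (background 18.4% and 19%). The member that fell with CAP7 was Ndufaf7 and the member that fell with ROSI was mt-Cytb. The lower count was 2 for CAP7 without vehicle 3 or CAP7 4 and 2 for ROSI without vehicle 4, and with library totals alone it was 2 for CAP7 and 4 for ROSI. The 3 comparisons share the vehicle libraries, so their counts are not separate evidence.

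Under TNF the compounds raised most nuclear members. Summed nuclear levels were 27371, 29388, 25129 and 29911 CPM with TNF plus SCO, 33566, 31731, 35645 and 30090.2 with TNF plus CAP7 and 35784, 32942, 36087 and 39384 with TNF plus ROSI. Every one of these libraries was above every library with TNF alone, by 31.6%, 54.2% and 69.7% in the mean. SCO raised 73 members and lowered 0 (background 13.2% and 8.09%), CAP7 raised 86 and lowered 0 (background 18% and 14.2%), and ROSI raised 86 and lowered 0 (background 19.6% and 16.3%). Medians were 0.35, 0.58 and 0.69 for the nuclear members. These 3 comparisons share the libraries with TNF alone.

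**Figure D1:**
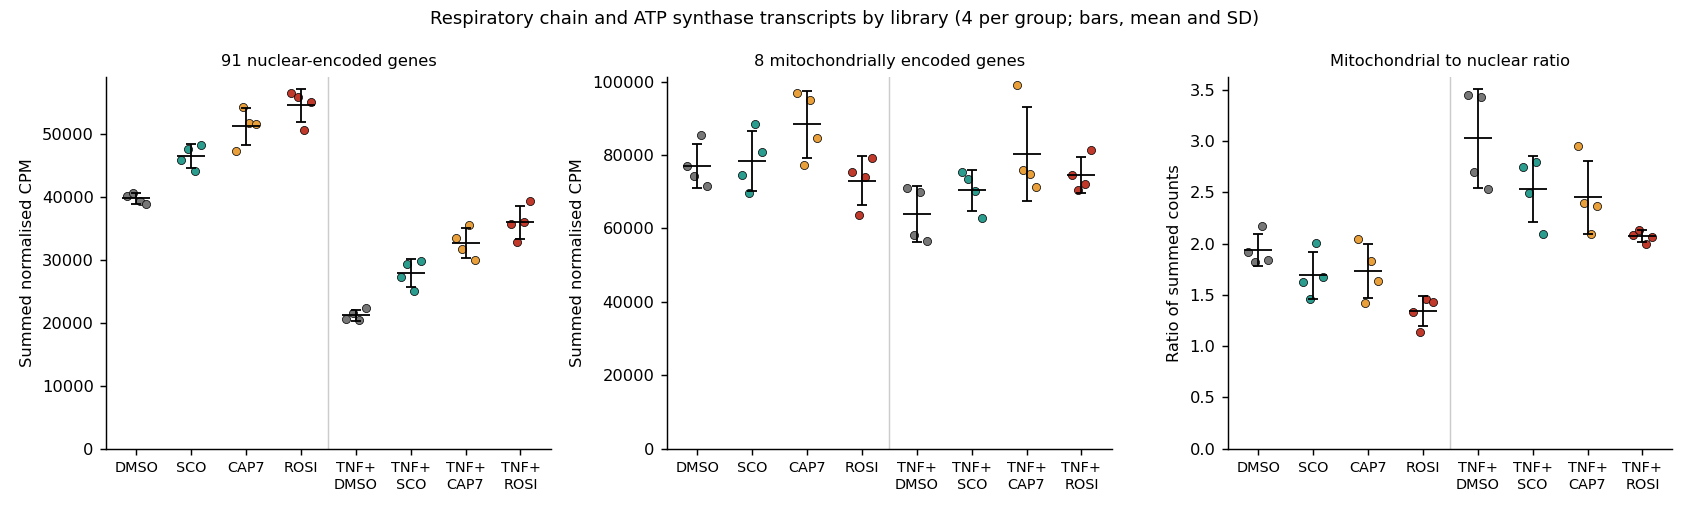
Summed CPM of the 91 tested nuclear members, summed CPM of the 8 tested mitochondrial members and their ratio in counts, 1 point per library in the 8 groups, with the group mean as a horizontal line and its SD as the error bar, on linear axes from 0. The nuclear sums of the TNF libraries (lowest 20441, highest 22363 CPM) lie below those of every other group, while the mitochondrial sums of the groups largely overlap.

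The complexes shared this pattern, with some spread between them. With TNF the median change was -1.09 over the 8 nuclear complex III genes, -1.08 over the 4 of complex II, -0.94 over the 17 of ATP synthase, -0.86 over the 36 of complex I and -0.86 over the 17 of complex IV. All tested nuclear subunits of complexes I, II and III fell, as did 16 of 17 in ATP synthase and 15 of 17 in complex IV. Among all genes 27.5% fell with TNF. The assembly factors changed least, with a median of -0.30 and 5 of 8 lower. With TNF plus ROSI against TNF alone the medians were 0.90, 0.74, 0.70, 0.67 and 0.65 for complex III, ATP synthase and complexes IV, I and II, and 0.30 for the assembly factors. Differences between complexes were not tested, since their genes are not replicates.

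**Figure D2:**
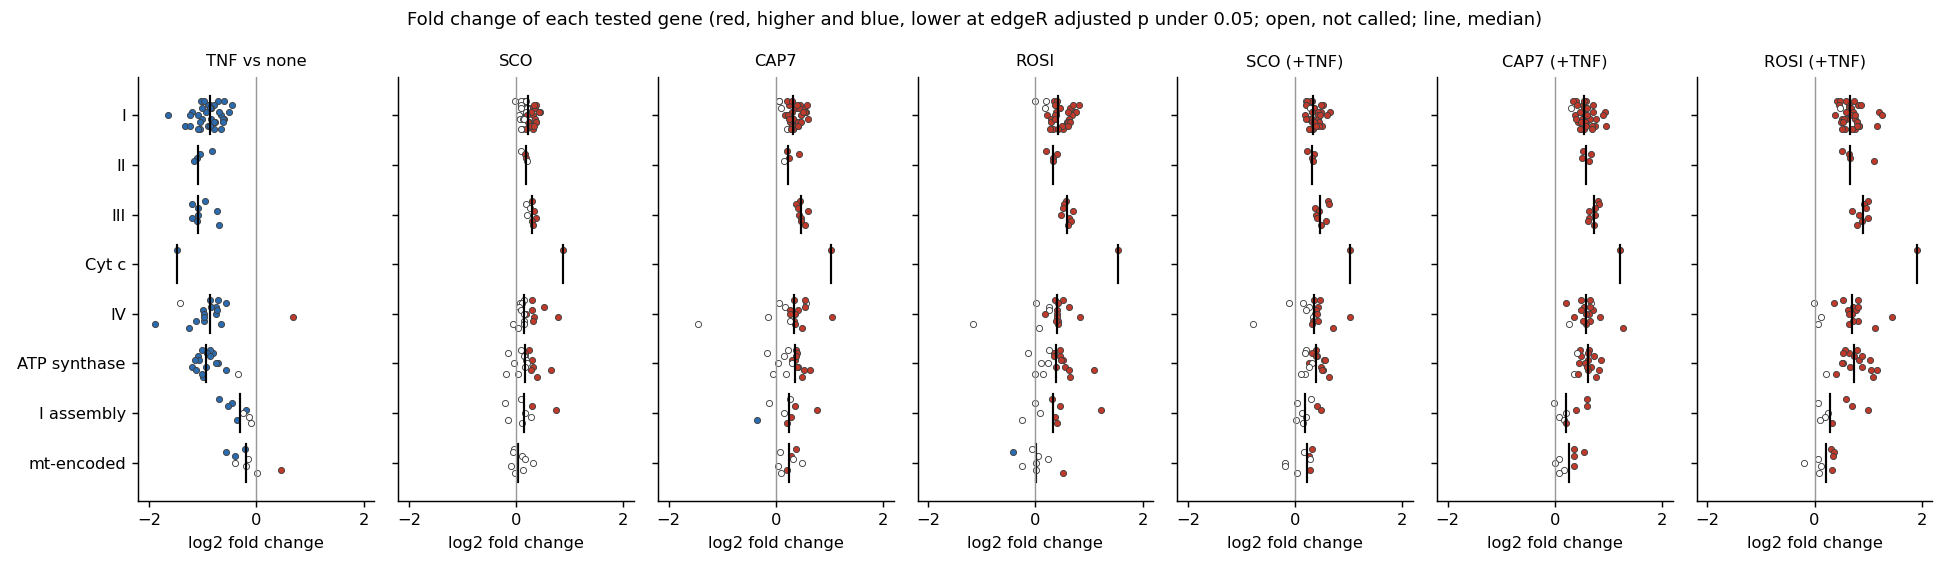
Log2 fold change of every tested member, grouped by complex, in the 7 comparisons with a control; each point is a gene, red where called higher, blue where called lower and open where not called, and the vertical line is the median. With TNF nearly all nuclear subunits lie left of 0, with complex III at a median of -1.09, while mitochondrial members lie on both sides of 0, from -0.57 to 0.46 (median -0.20).

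Complex I, which oxidises NADH, has 7 nuclear core subunits that carry the redox centres and, in this table, 29 tested accessory subunits. All 7 and all 29 fell with TNF (background 27.5%), with medians of -0.87 and -0.86. Ndufv1, the core subunit that binds NADH and flavin, was at 457, 459, 456 and 470.4 CPM with vehicle, 590.0, 604, 599.6 and 589 with SCO, 606, 679.9, 614 and 670.1 with CAP7, and 684, 736, 752 and 703 with ROSI. Under TNF its level was 292, 305, 279 and 315 CPM with TNF alone, 357, 378, 405 and 376 with TNF plus SCO, 402, 406, 436 and 418 with TNF plus CAP7, and 411, 409.8, 462 and 435 with TNF plus ROSI. Without TNF every compound stood above vehicle, and with TNF every compound stood above TNF alone, without overlap. It fell by 0.63 ± 0.055 with TNF (adjusted p = 1.43e-12) and rose by 0.37 ± 0.055, 0.48 ± 0.055 and 0.64 ± 0.055 with SCO, CAP7 and ROSI, and by 0.35 ± 0.055, 0.48 ± 0.055 and 0.53 ± 0.055 when TNF was present.

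Ndufb10, an accessory subunit of the membrane arm, had the largest fall with TNF among members of at least 5 CPM. It was at 396, 421, 416 and 373 CPM with vehicle, 479, 539, 472 and 517 with SCO, 493, 596, 547 and 606 with CAP7, and 680.2, 667, 579.7 and 667 with ROSI. In the TNF groups Ndufb10 was at 129, 134, 122 and 128 CPM with TNF alone, 178, 222, 167 and 213 with TNF plus SCO, 251, 229, 267 and 215 with TNF plus CAP7, and 306, 256, 323 and 340.4 with TNF plus ROSI. TNF alone was lowest, and ROSI library 3 stood below its group. The change was -1.65 ± 0.088 with TNF (adjusted p = 8.47e-19), 0.32 ± 0.085, 0.48 ± 0.085 and 0.69 ± 0.085 with the compounds alone, and 0.60 ± 0.086, 0.91 ± 0.086 and 1.26 ± 0.087 under TNF. Ndufs4, an accessory subunit whose loss in people causes Leigh syndrome, had the smallest fall of the complex with TNF (-0.46 ± 0.067). Ndufa8 had the largest rise with ROSI alone (0.82 ± 0.058), and Ndufa1, needed to assemble the membrane arm, was nearest to 0 in the complex and not called (95% interval -0.19 to 0.18).

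Among the assembly factors, Ndufaf4 and Ndufaf7 differed from the subunits. Ndufaf4, which helps build the early part of the complex, was at 27.9, 30.0, 32.2 and 30.3 CPM with vehicle, 46.2, 49.0, 55.5 and 51.3 with SCO, 46.5, 51.5, 53.8 and 54.0 with CAP7, and 70.9, 67.1, 71.7 and 72.8 with ROSI. The TNF groups held it at 27.1, 26.3, 25.4 and 26.5 CPM with TNF alone, 33.4, 37.7, 37.2 and 38.2 with TNF plus SCO, 37.1, 35.3, 31.8 and 34.5 with TNF plus CAP7, and 50.1, 45.8, 60.6 and 52.7 with TNF plus ROSI. ROSI libraries were highest in each state, and all TNF libraries lay below all vehicle libraries by a narrow gap. Its rise was 0.75 ± 0.079 with SCO, 0.78 ± 0.078 with CAP7 and 1.23 ± 0.078 with ROSI, the largest among the complex I and assembly genes, against a fall of 0.19 ± 0.079 with TNF. Ndufaf7, a methyltransferase needed for complex I assembly, was at 34.3, 36.3, 33.7 and 29.9 CPM with vehicle, 29.7, 33.1, 32.7 and 26.1 with SCO, 29.3, 26.9, 24.2 and 24.7 with CAP7, and 30.4, 28.3, 25.1 and 28.9 with ROSI. Under TNF its level was 28.0, 23.9, 24.5 and 28.3 CPM with TNF alone, 28.4, 29.6, 22.6 and 25.7 with TNF plus SCO, 35.3, 26.2, 30.0 and 25.9 with TNF plus CAP7, and 26.3, 24.4, 27.0 and 35.2 with TNF plus ROSI. CAP7 libraries lay below vehicle libraries, while SCO and ROSI overlapped them. It fell by 0.36 ± 0.11 with TNF (adjusted p = 0.00505) and by 0.35 ± 0.11 with CAP7 (adjusted p = 0.0118), and gave -0.15 ± 0.11 and -0.25 ± 0.11 with SCO and ROSI, not called. The ROSI value was called without vehicle 4 (-0.30, adjusted p = 0.0414), with library totals alone (-0.39, adjusted p = 0.00301), with a filter of 5 CPM (-0.27, adjusted p = 0.0432) and in a fit of those libraries alone (-0.24, adjusted p = 0.0416).

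Complex II, succinate dehydrogenase, is wholly nuclear, and its 4 genes fell together with TNF (background 27.5%), by 0.83 to 1.16 on the log2 scale. Sdhb, the iron-sulfur subunit, was at 397, 369.9, 393 and 371 CPM with vehicle, 432, 462, 415 and 410.4 with SCO, 499, 538, 507 and 524 with CAP7, and 505, 514, 482 and 512 with ROSI. With TNF added it was at 179, 191, 176 and 192 CPM with TNF alone, 221, 254, 224 and 245 with TNF plus SCO, 305, 278, 308 and 283 with TNF plus CAP7, and 285, 262, 294 and 305 with TNF plus ROSI. No group overlapped its control, and no TNF group reached vehicle. It fell by 1.06 ± 0.058 with TNF (adjusted p = 2.72e-18), rose by 0.43 ± 0.058 and 0.39 ± 0.058 with CAP7 and ROSI, and under TNF rose by 0.36 ± 0.058, 0.67 ± 0.058 and 0.64 ± 0.058 with SCO, CAP7 and ROSI. SCO without TNF gave 0.17 ± 0.058 (adjusted p = 0.0375), a call lost without vehicle 2 or 4 or SCO 1 or 2 (0.13 to 0.16, adjusted p from 0.0842 to 0.16), with library totals alone (0.10, adjusted p = 0.236) and without a filter on low counts (0.16, adjusted p = 0.16).

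Sdhd, a membrane anchor of complex II, had the largest fall of the 4 (-1.16 ± 0.12). Its libraries were at 85.5, 84.5, 90.7 and 83.1 CPM with TNF and at 179, 166, 187 and 212 CPM with TNF plus ROSI, without overlap. That rise, 1.11 ± 0.11, was the largest of complex II, where ROSI without TNF gave 0.34 ± 0.11. Sdha, the flavin subunit, fell least with TNF (-0.83 ± 0.06).

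Complex III takes electrons from ubiquinol to cytochrome c. All 8 of its tested nuclear genes rose with CAP7, with ROSI, and with every compound under TNF. Among all genes 15.2% rose with CAP7 and 18.4% with ROSI. Under TNF the shares were 13.2%, 18% and 19.6% with SCO, CAP7 and ROSI. Uqcrc1, a core subunit, was at 224, 245, 247 and 277 CPM with vehicle, 305, 345, 316 and 283 with SCO, 334, 397, 374 and 397 with CAP7, and 404, 435, 407 and 360.3 with ROSI. In the TNF groups Uqcrc1 was at 139.5, 149, 149 and 159 CPM with TNF alone, 195, 211, 214 and 196 with TNF plus SCO, 220.1, 217, 244 and 241 with TNF plus CAP7, and 249, 228, 259.8 and 225 with TNF plus ROSI. Compounds stood above their controls without overlap, and CAP7 and ROSI under TNF overlapped the vehicle libraries. TNF lowered it by 0.74 ± 0.073 (adjusted p = 3.35e-11), SCO, CAP7 and ROSI raised it by 0.33 ± 0.072, 0.60 ± 0.072 and 0.69 ± 0.072, and under TNF by 0.45 ± 0.072, 0.63 ± 0.072 and 0.69 ± 0.072. Uqcrfs1, the Rieske iron-sulfur protein, had the largest fall with TNF (-1.20 ± 0.11) and Uqcrq, a small subunit, the smallest (-0.70 ± 0.061). Uqcr11, whose promoter stretch is printed above, fell by 1.19 ± 0.08 and rose by 0.64 ± 0.079, 0.82 ± 0.079 and 0.93 ± 0.08 with the compounds under TNF.

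Cycs, which encodes the mobile carrier cytochrome c, had the largest response to ROSI of any nuclear member. It was at 179.6, 215, 206 and 173 CPM with vehicle, 352, 348, 296 and 429.5 with SCO, 350.3, 386, 438 and 399.8 with CAP7, and 590.1, 555, 459 and 644 with ROSI. The TNF groups held it at 63.0, 79.0, 63.9 and 70.6 CPM with TNF alone, 124, 158, 107 and 173 with TNF plus SCO, 182, 153, 174 and 129 with TNF plus CAP7, and 265, 218, 230.5 and 329 with TNF plus ROSI. All compound libraries lay above their controls, and with TNF plus ROSI also above all vehicle libraries. The fall with TNF was 1.48 ± 0.13 (adjusted p = 3.45e-12). Rises were 0.88 ± 0.13, 1.02 ± 0.13 and 1.54 ± 0.13 with SCO, CAP7 and ROSI (adjusted p = 2.83e-06, 7.31e-08 and 3.49e-12), and 1.02 ± 0.13, 1.21 ± 0.13 and 1.91 ± 0.14 under TNF.

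Complex IV, cytochrome c oxidase, reduces oxygen, and 15 of its 17 tested nuclear genes fell with TNF (background 27.5%). Cox4i1, the common form of its largest nuclear subunit, was at 1159, 1219, 1146 and 1169 CPM with vehicle, 1251, 1334, 1278 and 1319 with SCO, 1445, 1596, 1478 and 1409.7 with CAP7, and 1451, 1538, 1571 and 1507 with ROSI. Under TNF its level was 692, 746, 646 and 782 CPM with TNF alone, 849.6, 958, 895 and 933 with TNF plus SCO, 1001, 981, 1058 and 999 with TNF plus CAP7, and 981, 1005, 1051 and 1081 with TNF plus ROSI. No compound group overlapped its control, although SCO without TNF was not called. It fell by 0.71 ± 0.057 with TNF (adjusted p = 1.17e-13), gave 0.14 ± 0.057, 0.34 ± 0.057 and 0.37 ± 0.057 with SCO, CAP7 and ROSI (adjusted p = 0.0718, 1.05e-05 and 1.31e-06), and rose by 0.34 ± 0.057, 0.50 ± 0.057 and 0.52 ± 0.057 under TNF. The SCO value was called by DESeq2 (0.14, adjusted p = 0.0414) and in a fit of the SCO and vehicle libraries alone (0.14, adjusted p = 0.0362).

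Cox5b, the zinc-binding subunit, was at 528, 556, 509 and 499 CPM with vehicle, 642, 648, 579 and 689.7 with SCO, 658, 735, 716 and 673 with CAP7, and 692, 693, 635 and 749 with ROSI. With TNF added it was at 256, 269.5, 251 and 269.9 CPM with TNF alone, 335, 369, 278 and 398 with TNF plus SCO, 451, 433, 462 and 369 with TNF plus CAP7, and 446, 411, 442 and 500.2 with TNF plus ROSI. Compound libraries were above their controls throughout. It fell by 1.00 ± 0.081 with TNF (adjusted p = 1.76e-13) and rose by 0.29 ± 0.08, 0.41 ± 0.08 and 0.40 ± 0.08 without and by 0.40 ± 0.08, 0.71 ± 0.08 and 0.78 ± 0.081 with TNF. Ndufa4, first assigned to complex I, was at 439.8, 455, 463 and 466 CPM with vehicle, 527, 586, 514 and 641 with SCO, 470.1, 565, 590.4 and 562 with CAP7, and 643, 679.8, 442 and 609.6 with ROSI. In the TNF groups Ndufa4 was at 204, 193, 215 and 222 CPM with TNF alone, 249.9, 317, 225 and 324 with TNF plus SCO, 284, 324, 350.1 and 247 with TNF plus CAP7, and 291, 349, 339 and 391 with TNF plus ROSI. ROSI library 3 lay within the vehicle range and the other ROSI libraries above it. TNF lowered it by 1.13 ± 0.11 (adjusted p = 6.54e-11) and the compounds raised it under TNF by 0.42 ± 0.11, 0.53 ± 0.11 and 0.72 ± 0.11.

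Without TNF the Ndufa4 values were 0.31 ± 0.11, 0.26 ± 0.11 and 0.38 ± 0.11 for SCO, CAP7 and ROSI (adjusted p = 0.0448, 0.0754 and 0.00677). The SCO call was lost without vehicle 1, 2, 3 or 4 or SCO 2 or 4 (0.25 to 0.32, adjusted p from 0.0706 to 0.163), with DESeq2 (0.31, adjusted p = 0.063), with a filter of 5 CPM (0.30, adjusted p = 0.0506) and with limma-voom (0.31, adjusted p = 0.05). CAP7 was called without CAP7 library 1 (0.33, adjusted p = 0.0333), without a filter (0.27, adjusted p = 0.00184) and in a fit of the CAP7 and vehicle libraries alone (0.27, adjusted p = 0.00209). With library totals alone neither SCO (0.25, adjusted p = 0.119) nor ROSI (0.24, adjusted p = 0.0808) was called.

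Complex IV has tissue forms of several small subunits, and they did not all follow the common forms. Cox7a1 and Cox8b are the heart and muscle forms that also mark brown fat, beside the common Cox7a2 and Cox8a. Cox7a1 was at 116, 101, 92.6 and 96.7 CPM with vehicle, 109, 111, 81.0 and 114 with SCO, 145, 148, 161 and 120.0 with CAP7, and 110.2, 107, 89.9 and 118 with ROSI. The TNF groups held it at 47.1, 39.8, 39.5 and 43.6 CPM with TNF alone, 73.1, 76.5, 45.7 and 81.7 with TNF plus SCO, 107, 99.2, 113 and 89.0 with TNF plus CAP7, and 99.3, 85.1, 86.8 and 102 with TNF plus ROSI. SCO and ROSI overlapped vehicle, CAP7 stood above it, and under TNF all 4 libraries of CAP7 and of ROSI were above TNF alone while SCO library 3 was within its range. Cox7a1 fell by 1.26 ± 0.13 with TNF (adjusted p = 4.00e-11), rose by 0.49 ± 0.12 with CAP7 (adjusted p = 0.0016), and gave 0.03 ± 0.12 and 0.06 ± 0.12 with SCO and ROSI, not called and of the other sign with library totals alone. Under TNF it rose by 0.70 ± 0.12, 1.27 ± 0.12 and 1.13 ± 0.12 with SCO, CAP7 and ROSI.

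Cox8b responded to SCO and ROSI where Cox7a1 was called for CAP7. It was at 97.5, 88.2, 96.7 and 93.2 CPM with vehicle, 105, 127, 120.1 and 121 with SCO, 83.8, 85.8, 88.9 and 83.5 with CAP7, and 107, 122, 139 and 126 with ROSI. Under TNF its level was 51.5, 46.0, 41.9 and 51.7 CPM with TNF alone, 90.9, 102, 94.1 and 102 with TNF plus SCO, 84.9, 86.1, 95.0 and 75.9 with TNF plus CAP7, and 123, 126, 134 and 137 with TNF plus ROSI. SCO and ROSI stood above vehicle, CAP7 did not, and with TNF plus ROSI every library was above every vehicle library. The changes were -0.98 ± 0.078 with TNF, 0.33 ± 0.077 with SCO (adjusted p = 0.00136), -0.14 ± 0.077 with CAP7 (adjusted p = 0.188, not called, but called with library totals alone at -0.25, adjusted p = 0.00876) and 0.39 ± 0.076 with ROSI (adjusted p = 6.22e-05). Under TNF it rose by 1.02 ± 0.077, 0.84 ± 0.077 and 1.45 ± 0.078. Between compounds without TNF, CAP7 was below ROSI by 0.53 ± 0.076 (adjusted p = 3.73e-06) and SCO above CAP7 by 0.47 ± 0.076 (adjusted p = 1.02e-04), whereas Cox7a1 was higher with CAP7 than with SCO, by 0.47 ± 0.12 (adjusted p = 0.0148), and than with ROSI, by 0.43 ± 0.12 (adjusted p = 0.0138).

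Cox6a2, the muscle form of subunit VIa, was the nuclear member that rose with TNF. It was at 14.2, 16.0, 17.4 and 12.8 CPM with vehicle, 24.8, 23.2, 25.1 and 31.3 with SCO, 29.5, 31.7, 34.0 and 29.7 with CAP7, and 22.0, 24.4, 27.7 and 33.9 with ROSI. With TNF added it was at 25.0, 28.5, 19.3 and 24.4 CPM with TNF alone, 26.9, 30.6, 28.1 and 36.3 with TNF plus SCO, 34.1, 32.7, 22.4 and 34.2 with TNF plus CAP7, and 20.4, 31.9, 25.9 and 26.4 with TNF plus ROSI. Each treated group lay above vehicle without overlap, and the groups with TNF overlapped one another. It rose by 0.68 ± 0.15 with TNF (adjusted p = 1.26e-04) and by 0.79 ± 0.15, 1.04 ± 0.14 and 0.83 ± 0.15 with SCO, CAP7 and ROSI. Under TNF the compounds gave 0.33 ± 0.14, 0.35 ± 0.14 and 0.12 ± 0.14, and only CAP7 was called (adjusted p = 0.0473). That call was lost without TNF 1, 3 or 4 or TNF plus CAP7 1, 2 or 4 (0.25 to 0.37, adjusted p from 0.0645 to 0.213), with DESeq2 (0.35, adjusted p = 0.0545), with scaling factors taken without mitochondrial genes (0.34, adjusted p = 0.0511) and with library totals alone (0.25, adjusted p = 0.165). SCO was called without TNF 2 (0.41, adjusted p = 0.0477) and without a filter on low counts (0.33, adjusted p = 0.0154), and the ROSI value was -0.04 with library totals alone.

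**Figure D3:**
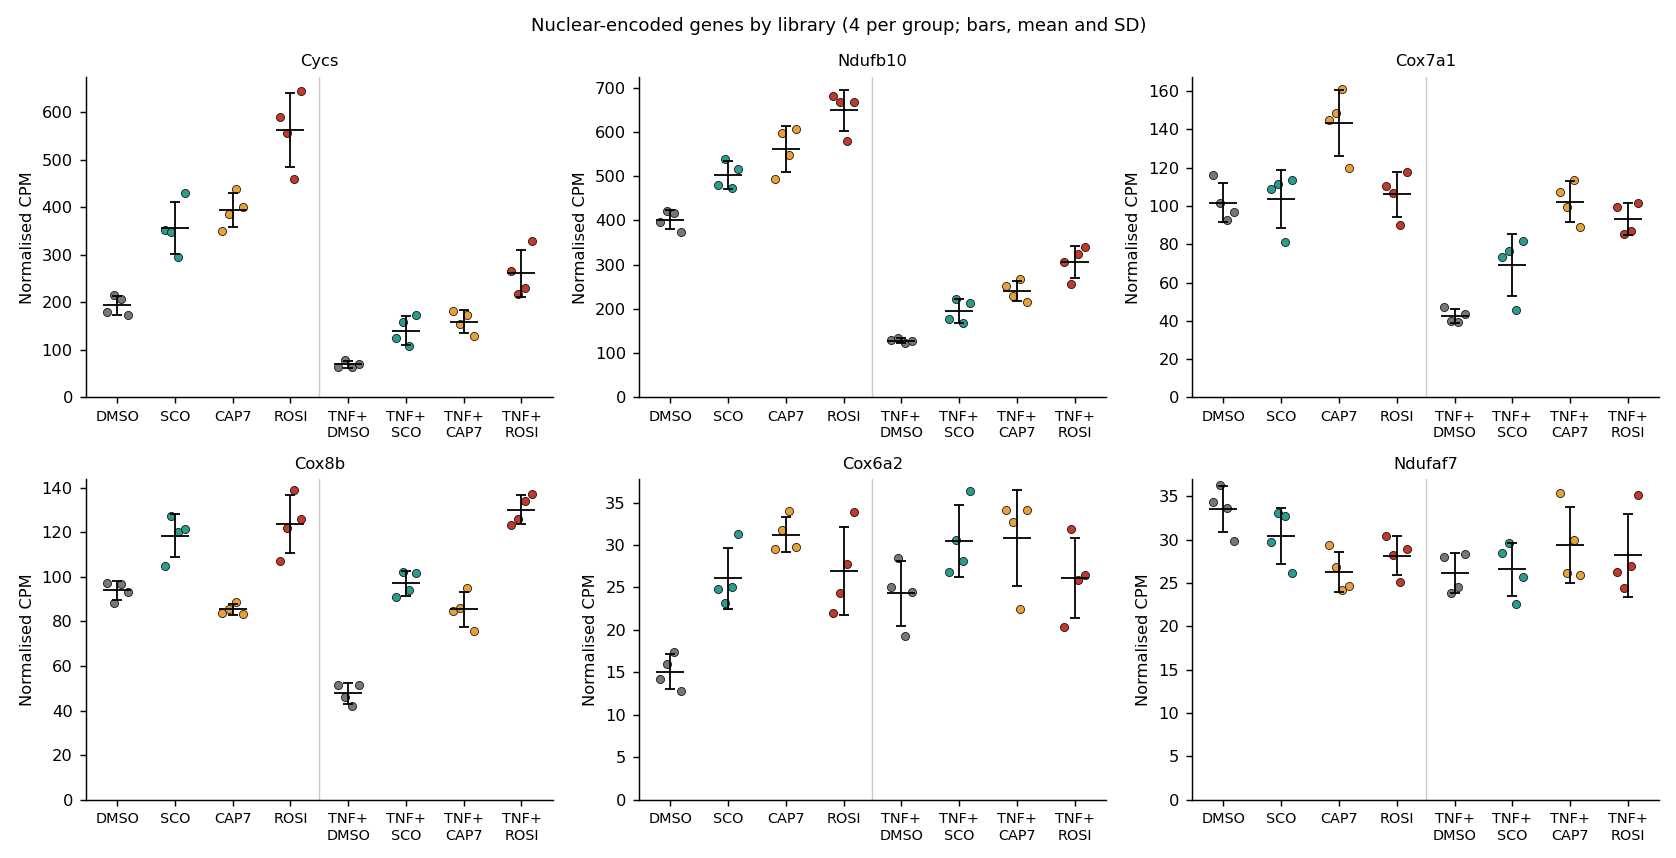
CPM of Cycs, Ndufb10, Cox7a1, Cox8b, Cox6a2 and Ndufaf7 in each of the 32 libraries, with the mean of each group of 4 as a horizontal line and its SD as the error bar. Cycs is highest with ROSI (459 to 644 CPM) and Ndufb10 lowest with TNF (122 to 134 CPM), and Cox6a2 lowest with vehicle (12.8 to 17.4 CPM).

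As a share of the paired forms, taken within a library and so free of scaling, Cox7a1 made up 12.5 ± 0.964% (SD, n = 4) of Cox7a1 plus Cox7a2 counts with vehicle, 9.40 ± 1.05% with ROSI, 9.75 ± 0.871% with TNF and 14.1 ± 0.909% with TNF plus CAP7. Cox8b made up 5.30 ± 0.616% of Cox8a plus Cox8b with vehicle, 4.05 ± 0.205% with CAP7, 5.27 ± 0.345% with TNF, 7.87 ± 0.469% with TNF plus SCO and 8.87 ± 0.308% with TNF plus ROSI. Cox6a2 made up 1.19 ± 0.176% of Cox6a1 plus Cox6a2 with vehicle, 3.16 ± 0.427% with TNF and 2.14 ± 0.462% with TNF plus ROSI. Cox7a1 shares with ROSI and with TNF lay below those with vehicle. Cox8b shares overlapped between vehicle and TNF, and Cox6a2 shares did not.

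**Figure D4:**
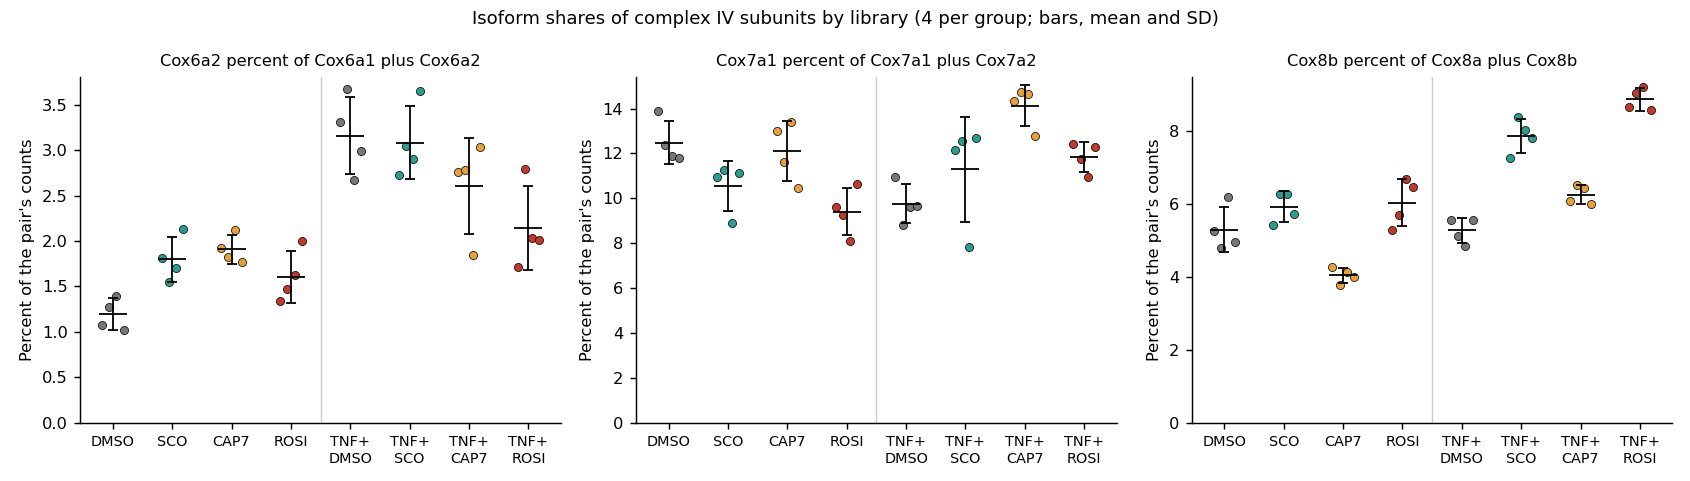
Percent of counts held by the tissue form within the pairs Cox7a1 with Cox7a2, Cox8b with Cox8a, and Cox6a2 with Cox6a1, 1 point per library, with the group mean as a horizontal line and its SD as the error bar. Cox8b shares are highest with TNF plus ROSI (8.57% to 9.20%) and lowest with CAP7 alone (3.79% to 4.27%).

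Other forms of complex IV were scarce. The hypoxia forms Cox4i2 and Ndufa4l2 had means of 0.235 and 0.249 CPM over all libraries, and the fall of Ndufa4l2 with TNF (-1.90 ± 0.77, adjusted p = 0.0348) rests on such counts. Cox6b2, Cox7b2 and Cox8c, known mainly from testis, were too low to test. Cox7a2l, which takes part in joining complexes III and IV, fell by 0.56 ± 0.066 with TNF and rose by 0.42 ± 0.066 with ROSI, while SCO and CAP7 gave 0.12 ± 0.066 and 0.06 ± 0.066, not called.

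ATP synthase had 17 tested nuclear genes, 16 lower with TNF (background 27.5%) and 16 higher with TNF plus ROSI than with TNF alone (background 19.6%). Atp5b, the catalytic beta subunit, was at 1369, 1434, 1337 and 1392 CPM with vehicle, 1543, 1568, 1472 and 1641 with SCO, 1759.6, 1893, 1871 and 1803 with CAP7, and 1787, 1794, 1596 and 1836 with ROSI. In the TNF groups Atp5b was at 747, 805, 770.4 and 832 CPM with TNF alone, 952, 1065, 857 and 1031 with TNF plus SCO, 1282, 1189, 1239 and 1135 with TNF plus CAP7, and 1229, 1156, 1238 and 1321 with TNF plus ROSI. Compounds were above their controls without overlap, and the TNF groups stayed below vehicle. It fell by 0.81 ± 0.062 with TNF (adjusted p = 3.16e-14), rose by 0.41 ± 0.061 and 0.34 ± 0.061 with CAP7 and ROSI, and rose by 0.31 ± 0.061, 0.62 ± 0.061 and 0.65 ± 0.062 with the compounds under TNF. For SCO alone it was 0.17 ± 0.061 (adjusted p = 0.0456), a call lost in 7 of 8 fits without 1 library (all but SCO 3; 0.14 to 0.19, adjusted p from 0.0519 to 0.141), with RLE factors (0.16, adjusted p = 0.056) and with library totals alone (0.10, adjusted p = 0.242). It was also lost with a filter of 5 CPM (0.16, adjusted p = 0.0579), without a filter (0.17, adjusted p = 0.0992) and with scaling factors taken without mitochondrial genes (0.17, adjusted p = 0.0501).

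The c subunit of the rotor, of which every enzyme holds a ring of identical copies, is encoded by Atp5g1, Atp5g2 and Atp5g3. Atp5g1 was at 69.5, 70.8, 67.9 and 72.5 CPM with vehicle, 164, 157, 143 and 138 with ROSI, 41.8, 46.5, 46.3 and 55.6 with TNF and 106, 96.8, 103 and 121 with TNF plus ROSI. ROSI libraries were above vehicle in both states. It fell by 0.56 ± 0.084 with TNF and rose by 0.64 ± 0.083, 0.63 ± 0.083 and 1.10 ± 0.083 with SCO, CAP7 and ROSI, the largest rises of the complex. Atp5g3 fell by 1.00 ± 0.063 with TNF and rose by 0.64 ± 0.063, 0.78 ± 0.063 and 1.09 ± 0.063 under TNF, and Atp5g2, at a mean of 8.76 CPM, was not called in any comparison with a control. Atp5f1, the peripheral stalk subunit b, had the largest fall of the complex (-1.20 ± 0.065). Atp5j, whose promoter stretch holds 2 of the searched words, fell by 0.92 ± 0.16 and was not called with any compound alone (-0.14 ± 0.16, -0.16 ± 0.16 and -0.13 ± 0.16), and under TNF it was called with ROSI (0.54 ± 0.16).

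Some genes of the enzymes carry names outside the rule. Atpif1, the inhibitor that blocks ATP synthase when it would run backwards, fell with each compound where the subunits rose. It was at 115, 112, 114 and 93.6 CPM with vehicle, 76.2, 72.7, 63.9 and 84.1 with SCO, 73.8, 72.2, 84.9 and 72.4 with CAP7, and 74.5, 69.9, 52.0 and 75.1 with ROSI. The TNF groups held it at 101, 109, 106 and 103 CPM with TNF alone, 89.0, 79.4, 69.8 and 97.6 with TNF plus SCO, 96.6, 95.4, 101 and 77.4 with TNF plus CAP7, and 89.0, 72.4, 68.6 and 80.9 with TNF plus ROSI. All compound libraries without TNF lay below the vehicle libraries, and TNF alone overlapped vehicle. The compounds lowered it by 0.55 ± 0.11, 0.52 ± 0.10 and 0.68 ± 0.11 without TNF (adjusted p = 1.69e-04, 1.59e-04 and 1.87e-06). Under TNF, ROSI lowered it by 0.43 ± 0.10 (adjusted p = 9.14e-04), SCO by 0.32 ± 0.10 (adjusted p = 0.0216, lost without TNF 2 or 3 or TNF plus SCO 2 or 3, at -0.31 to -0.24, adjusted p from 0.0514 to 0.124), and CAP7 gave -0.18 ± 0.10, not called, but called with library totals alone (-0.28, adjusted p = 0.0302).

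TNF alone gave -0.05 ± 0.10 for Atpif1 (adjusted p = 0.703). Cyc1, the cytochrome c1 subunit of complex III, fell by 1.37 ± 0.072 with TNF and rose by 0.53 ± 0.07, 0.75 ± 0.07 and 0.91 ± 0.07 with the compounds alone and by 0.75 ± 0.071, 0.89 ± 0.071 and 1.05 ± 0.071 under TNF. Usmg5, a small membrane subunit of ATP synthase, fell by 0.88 ± 0.16 with TNF. Ndufb1-ps, which RefSeq names Ndufb1 and which was left out for its symbol, fell by 0.40 ± 0.083.

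The summed mitochondrial members changed by less in the mean than the nuclear ones, and with ROSI alone in the other direction. Their summed level was 77001, 74385, 85364 and 71584 CPM with vehicle and 70938, 58185, 70036 and 56694 CPM with TNF. The groups were just apart, and the mean fell by 17.0%. The sums with SCO, CAP7 and ROSI overlapped vehicle, with means 1.71% and 14.7% above and 5.29% below it. Under TNF the means were 10.1%, 25.4% and 16.7% above TNF alone with SCO, CAP7 and ROSI, the direction of the nuclear sums. CAP7 did not overlap TNF alone (library 1 at 99060 CPM, the others from 71260 to 75890), while SCO and ROSI did. Among 8 tested genes TNF lowered 3 and raised 1 (background 27.5% and 26.7%), SCO changed 0 (background 10.3% higher and 8.99% lower), CAP7 raised 3 and lowered 0 (background 15.2% and 15%), and ROSI raised 1 and lowered 1 (background 18.4% and 19%). Under TNF, SCO raised 3, CAP7 4 and ROSI 4 of the 8 (background 13.2%, 18% and 19.6%). With so few genes, the counts for TNF and for ROSI alone are near the shares among all genes.

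The ratio of mitochondrial to nuclear counts was compared within libraries, where scaling does not enter. It was 1.92, 1.83, 2.17 and 1.84 with vehicle, 1.62, 1.46, 2.01 and 1.67 with SCO, 2.05, 1.42, 1.83 and 1.64 with CAP7 and 1.33, 1.14, 1.46 and 1.44 with ROSI. With TNF it was 3.45, 2.70, 3.43 and 2.54, with TNF plus SCO 2.75, 2.50, 2.79 and 2.10, with TNF plus CAP7 2.95, 2.39, 2.10 and 2.37 and with TNF plus ROSI 2.09, 2.13, 2.00 and 2.07. All TNF libraries were above all vehicle libraries and all ROSI libraries below them. The TNF plus ROSI libraries were below vehicle library 3 (2.17) and above the other vehicle libraries. Group means were 1.94 ± 0.159, 1.69 ± 0.229, 1.73 ± 0.267 and 1.34 ± 0.148 without TNF and 3.03 ± 0.479, 2.53 ± 0.320, 2.45 ± 0.359 and 2.07 ± 0.0569 with it (SD, n = 4). Leaving out mt-Nd4, the gene with most counts, gave 1.40, 1.26, 1.30 and 1.01 without TNF and 2.14, 1.94, 1.72 and 1.51 with it.

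mt-Nd1, a complex I subunit, was at 16306, 16991, 20361 and 16714 CPM with vehicle, 19057, 17032, 20889 and 18925 with SCO, 21205, 19476, 23152 and 22227 with CAP7, and 19973, 16634, 17683 and 18894 with ROSI. Under TNF its level was 13410.0, 12636, 14828 and 12398 CPM with TNF alone, 17022, 16759, 15755 and 14348 with TNF plus SCO, 20489.5, 15867, 16426 and 15755 with TNF plus CAP7, and 16413, 15920.4, 16361 and 18553 with TNF plus ROSI. TNF alone had the lowest mean, vehicle library 3 and TNF plus CAP7 library 1 stood above their groups, and the compounds without TNF overlapped vehicle. It fell by 0.40 ± 0.084 with TNF (adjusted p = 9.78e-05), rose by 0.29 ± 0.084 with CAP7 (adjusted p = 0.00718) and, under TNF, by 0.36 ± 0.084 and 0.34 ± 0.084 with CAP7 and ROSI (adjusted p = 7.41e-04 and 0.00145). SCO under TNF gave 0.26 ± 0.084 (adjusted p = 0.021), lost without TNF 2 or 4 or TNF plus SCO 1 or 2 (0.23 to 0.24, adjusted p from 0.0618 to 0.0724). With library totals alone the calls for CAP7 (0.18, adjusted p = 0.0906), for TNF plus SCO (0.19, adjusted p = 0.0925) and for TNF plus ROSI (0.18, adjusted p = 0.0773) were lost.

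mt-Cytb, the only mitochondrially encoded subunit of complex III, was at 15140.3, 14307, 16214 and 12544 CPM with vehicle, 14670.5, 12387, 13947 and 15151 with SCO, 17605, 13114, 17545 and 13041 with CAP7, and 11168, 9624, 10107 and 12731 with ROSI. With TNF added it was at 10998, 8658, 10921 and 8559 CPM with TNF alone, 12586, 12083, 10052 and 9255 with TNF plus SCO, 18139, 14616, 12706 and 11516 with TNF plus CAP7, and 12703, 12130.5, 11712 and 13764 with TNF plus ROSI. SCO and CAP7 overlapped vehicle, and so did 1 ROSI library. It fell by 0.57 ± 0.12 with TNF (adjusted p = 1.01e-04) and by 0.42 ± 0.12 with ROSI (adjusted p = 0.00552), in which the nuclear complex III genes rose. Under TNF it rose by 0.54 ± 0.12 with CAP7 (adjusted p = 4.55e-04) and by 0.36 ± 0.12 with ROSI (adjusted p = 0.0159), the latter lost without TNF 2 or 4 or TNF plus ROSI 4 (0.28 to 0.32, adjusted p from 0.0587 to 0.0887) and with library totals alone (0.20, adjusted p = 0.174).

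mt-Co1, the catalytic subunit of complex IV, was at 5871, 6405, 6631 and 6445 CPM with vehicle, 5816, 5901, 6637 and 6304 with SCO, 8646, 7823, 8407 and 8129 with CAP7, and 5707, 5637, 6501 and 6475 with ROSI. In the TNF groups mt-Co1 was at 5873, 5148, 5376 and 5571 CPM with TNF alone, 6995, 6952, 7216 and 6221 with TNF plus SCO, 7700.4, 6942, 6457 and 7191 with TNF plus CAP7, and 6224, 7137, 7024 and 6866 with TNF plus ROSI. CAP7 libraries without TNF were above all others. The changes were -0.21 ± 0.066 with TNF (adjusted p = 0.00744), 0.38 ± 0.066 with CAP7 (adjusted p = 1.63e-05), and -0.04 ± 0.065 and -0.06 ± 0.065 with SCO and ROSI, not called, of which ROSI was called lower with library totals alone (-0.20, adjusted p = 0.0105). Under TNF it rose by 0.32 ± 0.066, 0.36 ± 0.066 and 0.31 ± 0.066.

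Among the other complex I genes of the mitochondrial genome, mt-Nd5 rose with TNF, from 2290.0, 2272, 2385 and 2230.5 to 3451, 3035, 3232 and 2903 CPM without overlap (0.46 ± 0.066, adjusted p = 2.00e-07). mt-Nd6, the single protein-coding gene on the other strand of the mitochondrial genome, was at 182, 155, 158 and 191 CPM with vehicle and 227, 234, 305 and 215 CPM with ROSI. All ROSI libraries were above vehicle. It rose by 0.51 ± 0.13 with ROSI (adjusted p = 0.00216), whereas the other 2 compounds gave -0.02 ± 0.13 and 0.10 ± 0.13, not called, and SCO was below ROSI by 0.54 ± 0.13 (adjusted p = 0.00401). Whether the counting used strand is not given in the sources used here, so reads of mt-Nd6 and of transcripts opposite to it, mt-Nd5 being its neighbour, cannot be told apart. mt-Nd2 (-0.15 ± 0.16), mt-Nd3 (-0.40 ± 0.29) and mt-Nd4 (-0.19 ± 0.14) were not called with TNF.

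**Figure D5:**
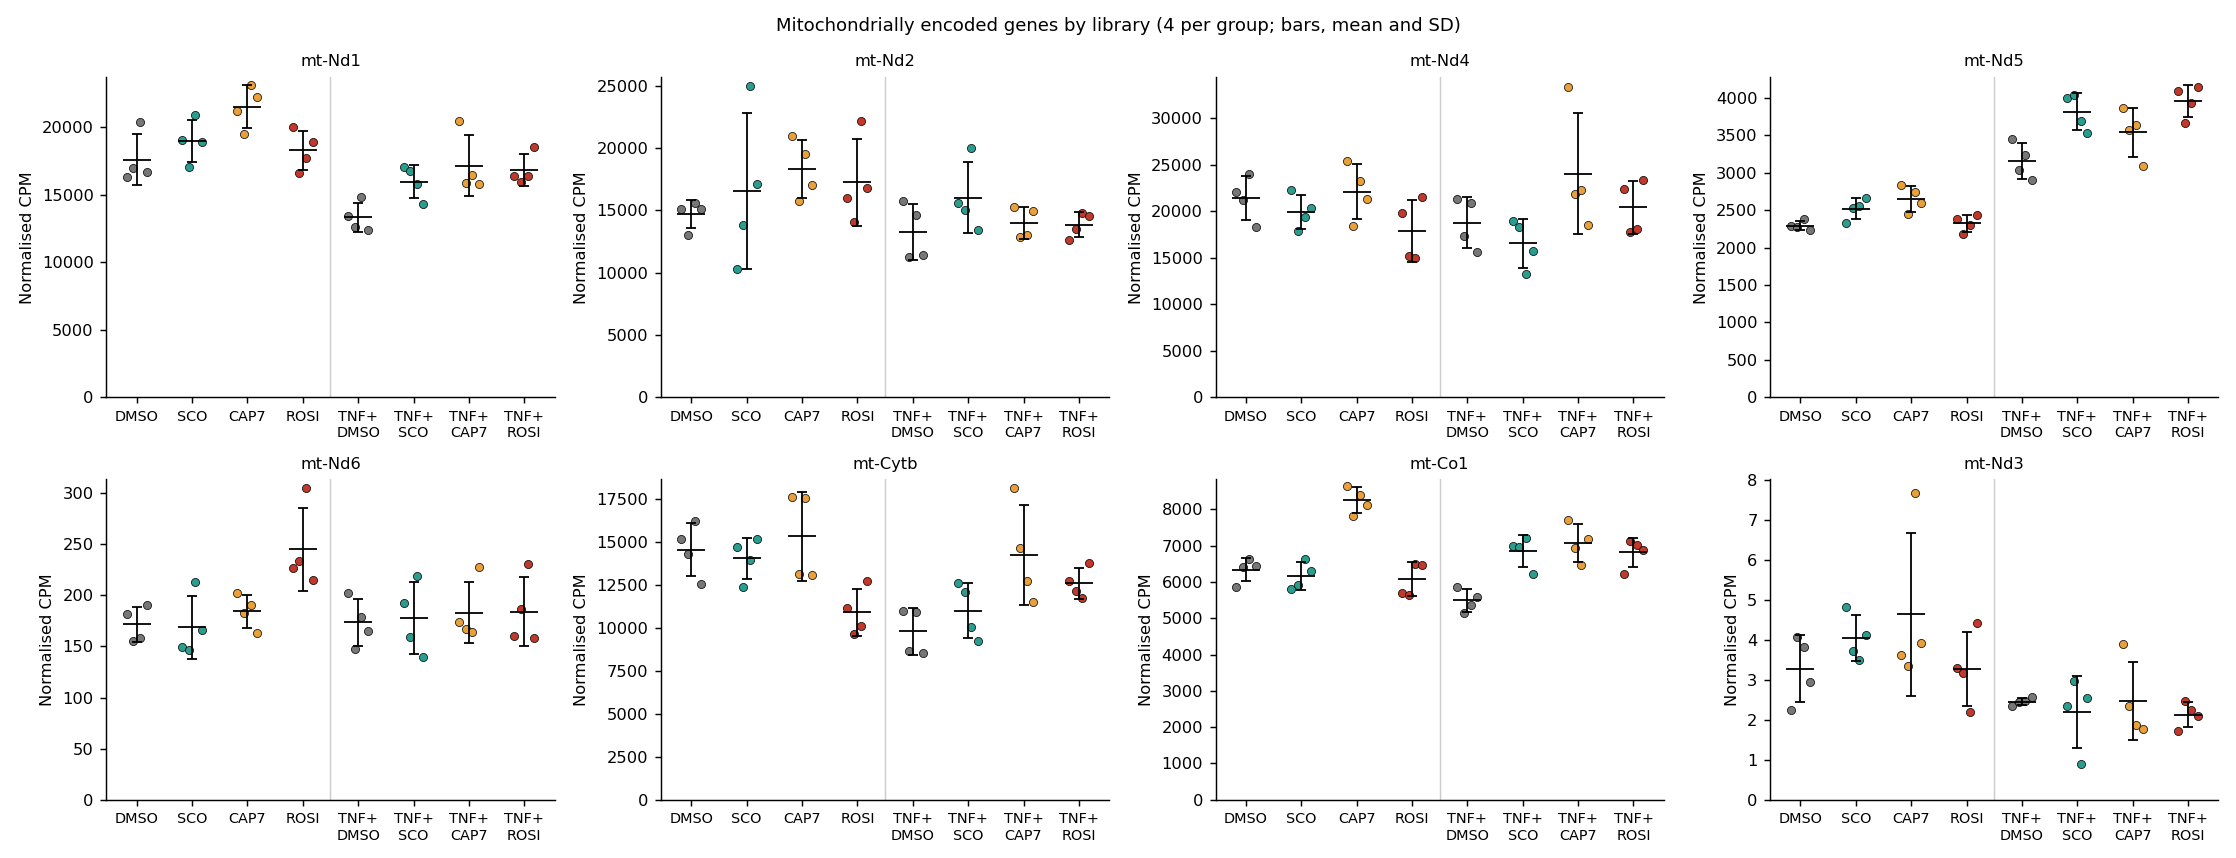
CPM of the 8 tested mitochondrially encoded members, 1 point per library on linear axes from 0, with the group mean as a horizontal line and its SD as the error bar. mt-Nd5 is higher in all 4 TNF groups than with vehicle (2230.5 to 2385 CPM), mt-Co1 is highest with CAP7 alone, and mt-Nd6 with ROSI alone (215 to 305 CPM) lies above vehicle.

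The remaining 5 mitochondrial members were nearly absent from the table and were not tested. mt-Atp6, the proton channel subunit of ATP synthase, had 0.304, 0.453, 0 and 0.588 CPM with vehicle and 0.124, 0.153, 0.104 and 0 with TNF, and 126 counts over all 32 libraries. With SCO it was at 1.02, 0.224, 0.457 and 0.233, with CAP7 at 0.0463, 0, 0 and 0.108 and with ROSI at 0.300, 0.186, 0.273 and 0 CPM, and in the TNF groups with SCO, CAP7 and ROSI at 0.152, 0.0449, 0 and 0.177, at 0.257, 0.204, 0.326 and 0.526 and at 0, 0.0434, 0.138 and 0 CPM. No library had more than 1.02 CPM. mt-Co2 had 27, mt-Co3 23, mt-Atp8 16 and mt-Nd4l 4 counts in all.

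Most of these genes have near-identical copies elsewhere in the annotation, and their sequences are shown for that reason. In the GENCODE M21 transcripts every 50-base stretch of mt-Co2 also occurs in another annotated gene, and so do 99.9% of those of mt-Co3, 99.5% of mt-Atp6, 98.8% of mt-Nd4l and 98.0% of mt-Nd3, which had a mean of 3.06 CPM. No stretch of mt-Nd1 or mt-Cytb does. Each sequence is 60 bases that end 10 bases before the 3′ end of the gene, near where these libraries were counted. mt-Co2 and mt-Atp6 are set beside their closest copies, with 0 mismatches, and mt-Nd1, which has none, stands alone.
mt-Co2: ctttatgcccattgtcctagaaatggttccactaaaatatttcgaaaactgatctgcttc
Gm28661: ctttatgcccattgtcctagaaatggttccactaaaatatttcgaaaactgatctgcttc
mt-Atp6: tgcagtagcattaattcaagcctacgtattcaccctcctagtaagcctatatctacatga
Gm10925: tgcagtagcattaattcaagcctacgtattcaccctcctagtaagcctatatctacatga
mt-Nd1: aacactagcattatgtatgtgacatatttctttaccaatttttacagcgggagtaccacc

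Low counts and copies did not go together in every gene. mt-Atp8 had no such copy and 16 counts, and all 151 stretches in the last 200 bases of mt-Co1 occur in copies although its mean was 6632 CPM. How reads with several places were counted is not stated, and the cause of the low counts was not tested. The summed mitochondrial level therefore stands for 8 genes. No level of mt-Atp6, mt-Atp8, mt-Nd4l, mt-Co2 or mt-Co3 in the cells should be read from these counts. The same caution holds for mt-Nd3, which was tested at a mean of 3.06 CPM with 98.0% of its stretches in copies. For mt-Nd4 62.2% of all stretches occur in copies, but 0% of those in its last 200 bases. For mt-Nd2 53.0% of the stretches in its last 200 bases do.

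Whether a compound's effect depended on TNF was tested as an interaction, the log2 change under TNF minus the change without it. For ROSI 39 members had a higher and 1 a lower value under TNF (background 10.1% and 4.51%), for CAP7 27 and 2 (background 10.3% and 5.92%) and for SCO 5 and 0 (background 3.51% and 1.13%). The 5 for SCO were Cox8b (0.69 ± 0.11), Cox7a1 (0.67 ± 0.17), Uqcr11 (0.45 ± 0.11), Atp5k, a membrane subunit of ATP synthase (0.37 ± 0.11), and mt-Co1 (0.36 ± 0.093), and there were 8 without TNF plus SCO library 3. Cox8b and Cox7a1 were also the largest called for CAP7 (0.98 ± 0.11 and 0.77 ± 0.17) and for ROSI (1.05 ± 0.11 and 1.07 ± 0.17).

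For ROSI, 11 of 17 ATP synthase genes, all 4 of complex II and 4 of 8 of complex III had a higher value under TNF. The same held for 7 of 17 genes of complex IV, 10 of 36 of complex I and 3 of 8 mitochondrial genes. Among all genes the share was 10.1%. Sdhd (0.78 ± 0.16) and mt-Cytb (0.78 ± 0.17) had the largest values outside complex IV. Cox6a2 was the called gene with a smaller rise under TNF, for CAP7 (-0.70 ± 0.20) and ROSI (-0.72 ± 0.20), and for CAP7 Ndufaf4 was the other (-0.38 ± 0.11). Without TNF plus ROSI library 3 the lower count for ROSI was 3, and without vehicle library 1 that for CAP7 was 1. The mean summed adipocyte markers were 41150 CPM with vehicle and 75560 with ROSI, and 12906 CPM with TNF and 56172 with TNF plus ROSI, and their part in these values was not tested. Cycs (0.14 ± 0.19, 0.18 ± 0.18 and 0.37 ± 0.18 for SCO, CAP7 and ROSI) and Ndufv1 (-0.02 ± 0.078, 0.00 ± 0.077 and -0.11 ± 0.077) were not called.

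Compounds were also set against one another, at doses that are not known. Without TNF, 47 members were lower and 1 higher with SCO than with ROSI (background 7.33% lower and 7.39% higher), and 11 were lower and 3 higher with CAP7 than with ROSI (background 6.27% and 5.39%). SCO against CAP7 gave 16 lower and 1 higher (background 3.04% and 3.01%). Cycs was below its ROSI level by 0.66 ± 0.13 with SCO and by 0.51 ± 0.13 with CAP7, and differed between SCO and CAP7 by -0.14 ± 0.13, with a 95% interval of -0.40 to 0.12. Single libraries and the scaling changed these counts. Against CAP7, SCO had 6 members lower without SCO 1, SCO 3 or CAP7 2, 7 without CAP7 3, 10 without CAP7 4 and 7 with library totals alone, and 2 higher without SCO 2, SCO 4 or CAP7 4. Against ROSI, CAP7 had 7 lower without CAP7 1, 6 without CAP7 3 or ROSI 2, 5 higher without CAP7 2, and 5 higher with 6 lower under library totals alone, which moves the higher share of calls from 21.4% to 45.5%. For SCO against ROSI the library totals alone gave 30 lower and 2 higher, and the single higher gene, mt-Cytb (0.36 ± 0.12), was lost without any one of SCO 1, 3 or 4 or ROSI 1, 2 or 3 and with DESeq2, which leaves 0.

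Among the compounds under TNF the mean summed nuclear level was lowest with SCO and highest with ROSI, though CAP7 and ROSI libraries overlapped. SCO had 73 members below ROSI and 0 above it (background 8.64% and 5.74%), CAP7 had 18 below and 0 above ROSI (background 5.09% and 3.48%), and SCO had 40 below and 0 above CAP7 (background 5.03% and 4.13%). Among called members, the largest differences from ROSI were in Cycs for both SCO (-0.89 ± 0.13) and CAP7 (-0.71 ± 0.13), followed by Sdhd for SCO (-0.78 ± 0.11) and by Cox8b (-0.61 ± 0.076) and Ndufaf4 (-0.60 ± 0.076) for CAP7. Among called members SCO was furthest below CAP7 in Cox7a1 (-0.57 ± 0.12) and mt-Nd4 (-0.54 ± 0.14). The scarce Ndufa4l2 and Cox4i2 had values of similar or larger size with wide errors, such as -1.05 ± 0.90 for Ndufa4l2 with SCO against CAP7, and were not called. SCO against CAP7 fell to 13 lower without TNF plus SCO 3, to 22 without TNF plus CAP7 1 or 3, and to 14 in a fit of those libraries alone. CAP7 against ROSI fell to 10 without CAP7 2, ROSI 3 or ROSI 4 under TNF, to 9 without CAP7 4, to 10 with library totals alone and to 8 in a fit of those libraries alone. For Atp5b the interval of CAP7 against ROSI was -0.15 to 0.09, so which of them is higher cannot be read from these libraries.

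How near the compounds brought the members to untreated cells was read from each TNF plus compound group against vehicle. With TNF plus SCO 82 members were lower and 3 higher than vehicle (background 22.3% and 25.2%), with TNF plus CAP7 62 and 3 (background 19.2% and 21.4%), and with TNF plus ROSI 41 and 7 (background 21.1% and 24.9%). The median of the nuclear members was -0.52, -0.29 and -0.18, against -0.87 with TNF alone. With library totals alone 69 were lower with TNF plus ROSI, and among all genes the share of higher calls went from 54.1% to 36.7%, and for TNF plus CAP7 from 52.8% to 40.2%. The summed nuclear level with TNF plus ROSI was 9.44% lower than vehicle in the mean. Only its library 4 (39384 CPM) was above the lowest vehicle library (38924.5 CPM).

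By complex, TNF plus ROSI left 20 of 36 complex I genes, 3 of 4 of complex II and 3 of 8 of complex III below vehicle. The same held for 6 of 17 genes of complex IV and 8 of 17 of ATP synthase. Among all genes 21.1% were lower. Ndufb10 (-0.39 ± 0.085), Ndufs5 (-0.54 ± 0.21) and Sdhc (-0.44 ± 0.067) were among them, and Atp5g3 (0.08 ± 0.062) and Uqcrc1 (-0.05 ± 0.072) were not called. Above vehicle were Cox6a2 (0.80 ± 0.15), Ndufaf4 (0.80 ± 0.078), mt-Nd5 (0.79 ± 0.067), Atp5g1 (0.60 ± 0.083), Cox8b (0.47 ± 0.076), Cycs (0.43 ± 0.13) and Ndufaf8 (0.23 ± 0.06). With TNF plus SCO and TNF plus CAP7 the 3 above vehicle were mt-Nd5, Ndufaf4 and Cox6a2.

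Other genes of the pathway were read from 3 lists. Of 36 assembly factors and further chain genes 26 fell and 4 rose with TNF (median -0.51), where among all genes 27.5% fell and 26.7% rose. ROSI raised 24 and lowered 2 without TNF (background 18.4% and 19%) and raised 26 and lowered 1 with it (background 19.6% and 16.3%). The genes named from these lists were chosen after their values were seen, and those given with a change were called unless said otherwise. Atpaf2, a chaperone of the ATP synthase head, changed by -1.29 with TNF, and Cox20, which handles the Cox2 protein, changed by -1.28. Sco2, a copper chaperone of complex IV, rose by 0.90 and Uqcc2, a factor for cytochrome b, by 0.47. Uqcc2 fell with every compound (with ROSI -0.35). SCO raised 17 and lowered 1 of the list, and CAP7 raised 18 and lowered 2 (background 10.3% and 8.99%, and 15.2% and 15%).

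Of 24 genes for expression of the mitochondrial genome and its regulators 7 fell and 4 rose with TNF (median -0.14), against 27.5% and 26.7% of all genes, so the share that fell was near the background. Those that fell included the coactivators Ppargc1b (-2.00) and Ppargc1a (-1.57), the nuclear receptor Esrra, which encodes ERRα (-1.53), and Tefm, an elongation factor of mitochondrial transcription (-1.21). Pprc1, a related coactivator, rose by 1.25, Gabpb1, a GABP subunit, by 0.97 and Yy1 by 0.45. Tfam, which packages and transcribes mitochondrial DNA, gave 0.05 and Nrf1 0.18, neither called. ROSI raised 11 and lowered 1 of the list without TNF (background 18.4% and 19%), among the former Ppargc1a (1.31), Ppargc1b (1.14) and Esrra (0.83), and under TNF these were 1.96, 1.66 and 1.27. For SCO and CAP7 under TNF, Ppargc1a rose by 1.32 and 1.30 and Esrra by 1.00 and 0.93.

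Of 23 tested carriers that feed or serve the chain 19 fell and 1 rose with TNF (median -0.72, background 27.5% and 26.7%), and ROSI under TNF raised 19 and lowered 2 (background 19.6% and 16.3%). Etfb and Etfdh, which bring electrons from fatty acid oxidation to ubiquinone, changed by -1.37 and -1.25 with TNF and by 1.06 and 0.93 with ROSI. Gpd2, the glycerol phosphate dehydrogenase that also feeds ubiquinone, fell with ROSI (-0.73) and with CAP7 (-0.46). Slc25a4, an ADP/ATP carrier, fell with TNF (-0.54) and was not called with ROSI under TNF (0.09). Ucp1, the heat-making uncoupler of brown fat, was not tested, with 0.0809 CPM with vehicle.

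Over the 32 libraries, which form 8 groups and share the TNF contrast, the tested genes whose log2 CPM was most alike to the summed nuclear members included Suclg1, an enzyme of the TCA cycle, Scp2, a sterol carrier, Mtch2, of the outer mitochondrial membrane, and Mpc2, a subunit of the pyruvate carrier, with Pearson r from 0.989 to 0.992. Among the members themselves the median r with that sum was 0.979 for the nuclear genes, 73 of 91 over 0.9, and the lowest were Cox6a2 (0.0102) and Ndufaf7 (0.261). For the mitochondrial genes the median r was 0.326, from -0.611 for mt-Nd5 to 0.779 for mt-Nd1. These values describe the libraries and carry no test, and each nuclear member is part of the sum it was set against.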

How the data were processed

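RNA of 32 3T3-L1 libraries was sequenced from transcript 3′ ends. Per the submitters' processing notes, cutadapt 4.9, STAR 2.7.11b and HTSeq 2.0.5 were used with the build GRCm39. The deposited values are raw read counts per Ensembl gene, and the treatment of reads with several places is not stated. Symbols came from GENCODE M21, and promoters and mitochondrial transcripts from the reference tables named in the text. All columns were matched to samples by name.

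Genes passing edgeR's filterByExpr were scaled by TMM and fitted with edgeR's quasi-likelihood test (edgeR 4.0.16, R 4.3.3) in 1 model of 8 groups without covariates, with Benjamini-Hochberg adjustment over all 14428 tested genes. Fold-change intervals are 95%. Sums and ratios are over the 99 tested members and carry no test. The code was tested on simulated data. Alternatives were RLE factors, library totals alone, factors without mitochondrial genes, no filter, a filter of 5 CPM in 4 libraries, a replicate block, only the groups compared, limma-voom (limma 3.58.1), DESeq2 1.42.0 and leaving out each library. Correlations used log2 of CPM plus 0.5.

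Genes in full were a set of 16 chosen by role and, in each of the 7 comparisons with a control, the called member of at least 5 CPM with the largest rise and the largest fall. Others were named as the largest, smallest or opposite change of their complex, as tissue or stress forms, or for failing the filter. Some genes that these rules name are not reported here. Members, lists and named genes were chosen with earlier results of these data known. Left out as pseudogenes by symbol or annotation were 13 genes.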

Additional observations from a re-analysis of the deposited data

Results flagged for a closer look

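Among 168 groups of 4 libraries examined, 8 held a library far from its fellows by Dixon's criterion, where chance gives about 1 in 20. TNF plus CAP7 library 1 had a summed mitochondrial level of 99060 CPM, against 71260 to 75890 CPM in the other 3, and mt-Nd1 at 20490 CPM, against 15750 to 16430 CPM. Vehicle library 3 had mt-Nd1 at 20360 CPM, against 16310 to 16990 CPM. TNF plus CAP7 library 3 had Cox6a2 at 22.43 CPM, against 32.73 to 34.17 CPM. ROSI library 3 had Ndufb10 at 579.7 CPM, against 667.2 to 680.2 CPM. Atpif1 was at 93.63 CPM in vehicle library 4, against 111.7 to 114.7 CPM, and at 84.85 CPM in CAP7 library 3, against 72.18 to 73.83 CPM. Cox7a1 was at 81.01 CPM in SCO library 3, against 108.9 to 113.6 CPM.

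The effect of a compound differed between cells without and with TNF, by edgeR's interaction term with an adjusted p under 0.05, for several genes given in full. The difference is the log2 change under TNF minus that without. For SCO it was 0.6905 for Cox8b, 0.6724 for Cox7a1 and 0.3581 for mt-Co1. For CAP7 it was 0.9752 for Cox8b, 0.7727 for Cox7a1, 0.5196 for Ndufaf7, 0.4254 for Ndufb10, 0.239 for Sdhb and -0.696 for Cox6a2. For ROSI it was 1.071 for Cox7a1, 1.051 for Cox8b, 0.7782 for mt-Cytb, 0.5649 for Ndufb10, 0.3771 for Cox5b, 0.3709 for mt-Co1, 0.3053 for Atp5b, 0.2435 for Sdhb and -0.7162 for Cox6a2. The 3 interactions share the libraries with vehicle and with TNF alone.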

How the results depend on the processing

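Over all alternatives 638 of 694 counts of called members stayed within 1.5 times the reported count, and 2047 of 2142 fold changes of genes given in full kept direction and call, while 61 lost the call, 14 gained it and 20 changed sign, none of them called.

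With library totals alone the lower counts were 2 for CAP7, 4 for ROSI and 69 for TNF plus ROSI against vehicle; the higher and lower counts were 2 and 30 for SCO against ROSI and 5 and 6 for CAP7 against ROSI; SCO had 7 below CAP7, and under TNF CAP7 had 10 below ROSI and SCO 1 above CAP7. That scaling gave Cox7a1 -0.03781 with SCO and -0.07975 with ROSI, mt-Cytb -0.03557 with CAP7, mt-Nd1 -0.08454 with ROSI, Ndufaf7 -0.05043 with TNF plus SCO and -0.04995 with TNF plus ROSI, and Cox6a2 -0.03981 with TNF plus ROSI. Without a filter ROSI lowered 2, SCO under TNF lowered 1, CAP7 had 6 above and 7 below ROSI, 1 was higher in each comparison between compounds under TNF, and the ROSI interaction had 2 lower. A filter of 5 CPM, and a fit of only the groups compared, each gave 2 lower with ROSI; the latter gave 8 for CAP7 below ROSI and 14 for SCO below CAP7 under TNF. limma-voom gave 5 for CAP7 above ROSI and DESeq2 gave 0 for SCO above ROSI.

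Leaving out 1 library, counts ranged from 1 to 2 (lower with CAP7, lower with ROSI, lower in the CAP7 interaction, SCO above CAP7), 0 to 1 (SCO above ROSI), 6 to 20 (SCO below CAP7), 2 to 5 and 6 to 11 (CAP7 above and below ROSI), 13 to 48 (SCO below CAP7 under TNF), 9 to 21 (CAP7 below ROSI under TNF), 4 to 8 (higher in the SCO interaction) and 1 to 3 (lower in the ROSI interaction). Cox7a1 with SCO ranged from -0.01803 to 0.1289, mt-Cytb from -0.1219 to 0.004255 with SCO and -0.003764 to 0.1449 with CAP7, and Ndufaf7 from -0.03526 to 0.09639 with TNF plus SCO and -0.01567 to 0.1699 with TNF plus ROSI. Without mt-Nd4 the ratio of mitochondrial to nuclear counts was 1.399, 1.261, 1.299 and 1.013 with vehicle, SCO, CAP7 and ROSI, and 2.137, 1.942, 1.72 and 1.506 in the same order under TNF.

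Whether the replicate numbers pair the libraries was left unsettled. Same-numbered libraries had a mean correlation of only 0.0168, against -0.0056 for others, and 8 of 112 pairs passed 0.1. Yet 15 of 32 libraries were closest to their own number, a count that was not tested against chance. With the replicate number as a block 5 members were above ROSI with CAP7 (3 as reported), and no other count moved by over 1.5 times. The cause of these changes was not tested, beyond fewer libraries or genes where the alternative leaves them out. Depth limits most the genes under 1 CPM, Cox4i2 and Ndufa4l2, and the 5 mitochondrial genes near 0.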
